A study of Homo sapiens with 16 samples.

Results

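The neighbouring genes NEAT1 and MALAT1 lie on the long arm of human chromosome 11 and make some of the most abundant noncoding RNAs of the nucleus. The locus was taken as every row of the 7 deposited region tables that overlapped chr11:65170000-65290000 by at least 1 bp (hg19, the build of all positions of regions given here). This 120 kb window held 329 of the 1255311 regions of the series. NEAT1 was placed at chr11:65190200-65213100 (22.9 kb) and MALAT1 at chr11:65265200-65274000 (8.8 kb), with 52.1 kb between them. These bounds are rounded, so a gene's start or end is known only to about the size of a counting window. In the RefSeq gene order of GRCh38.p14, FRMD8 and SLC25A45 come before NEAT1, and MIR612, FAUP4, ENEMAL and LINC02736 stand between NEAT1 and MALAT1. The antisense gene TALAM1 and the small RNA MASCRNA follow MALAT1 in that order, and reads of chromatin carry no information on the strand that is transcribed.

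NEAT1 RNA is the scaffold of paraspeckles, nuclear bodies that hold RNA-binding proteins such as NONO and SFPQ. A short polyadenylated isoform and a long isoform start at the same promoter, and the long one, whose end is cut by RNase P, builds the body. MALAT1 RNA gathers in nuclear speckles, where splicing factors are stored. Its end is also cut by RNase P, which frees a tRNA-like small RNA called mascRNA and leaves an RNA that is stabilised by a triple helix in place of a poly(A) tail. RNA polymerase II carries serine 5 phosphorylation on its C-terminal repeat near promoters and gains serine 2 phosphorylation as it elongates and reaches the end of a gene. CTCF is a zinc finger protein that stops the cohesin ring as it extrudes chromatin loops, and methylation of its site can block its binding. Acetylation of histone H3 at lysine 27 (H3K27Ac) marks active promoters and enhancers.

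DKO cells, derived from HCT116 by disruption of DNMT1 and DNMT3B, which encode DNA methyltransferases, were set against HCT116, a colorectal carcinoma cell line. Both were grown in the same medium, and no other treatment is labelled. DKO is 1 derived line, so the loss of the methyltransferases and other differences between the lines cannot be told apart. Chromatin was immunoprecipitated for CTCF, the cohesin subunits RAD21 and SMC1, H3K27Ac, serine 5 polymerase (Pol2Ser5), serine 2 polymerase (Pol2Ser2) and total polymerase (TotalRNAPol2), with 1 library per line and target. The TotalRNAPol2 libraries are grouped by their titles, while their antibody label names Pol2Ser5, so which form of polymerase they hold is uncertain. The series asks how DNA methylation acts on alternative polyadenylation through CTCF and cohesin, and polyadenylation itself was not analysed here.

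Each region has a normalized density per line, and M is the log2 ratio of these densities, DKO over HCT116. A region is called past 2-fold at M of 1 or more (higher in DKO) or -1 or less (lower in DKO). With no second library of any target, differences were not set against a replicate spread and the lines were not tested against each other. Brackets give the exact Clopper-Pearson 95% interval of M from the reads counted in the region's window, 2 kb wide for H3K27Ac and polymerase and 1 kb wide for CTCF and cohesin. These intervals cover counting error only. In the window a region had from 8 to 2073 reads in DKO and from 4 to 1619 reads in HCT116. Median reads per region over the whole tables were 43 for Pol2Ser5 in DKO and 23 in HCT116. They were 24 in DKO and 34 in HCT116 for Pol2Ser2 and 74 in DKO and 50 in HCT116 for TotalRNAPol2, so reads are compared between lines only after scaling. The CTCF locus regions numbered 26, RAD21 55, SMC1 57, H3K27Ac 42, Pol2Ser5 52, Pol2Ser2 55 and TotalRNAPol2 42, and neighbours can share reads where their counting windows overlap (from 13 of the 26 CTCF regions to 46 of the 52 Pol2Ser5 regions did).

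RefSeq promoter sequences, 300 bases each, were found for 1 of the 2 genes: MALAT1 has 2 entries, both on the plus strand of GRCh38.p14, a build whose positions are not converted to hg19 here. They are shown because the polymerase and acetylation at the start of MALAT1 are described below and the compared cells differ in DNA methyltransferases, whose substrate is the CG dinucleotide. Capitals mark each CG.
MALAT1 promoter 1, chr11:65497488-65497787: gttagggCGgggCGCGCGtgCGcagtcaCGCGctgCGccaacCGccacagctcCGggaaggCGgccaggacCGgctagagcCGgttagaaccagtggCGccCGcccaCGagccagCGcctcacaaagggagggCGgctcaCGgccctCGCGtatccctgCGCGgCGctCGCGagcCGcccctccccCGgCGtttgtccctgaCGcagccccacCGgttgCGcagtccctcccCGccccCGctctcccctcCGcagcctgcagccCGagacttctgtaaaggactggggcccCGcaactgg
MALAT1 promoter 2, chr11:65498795-65499094: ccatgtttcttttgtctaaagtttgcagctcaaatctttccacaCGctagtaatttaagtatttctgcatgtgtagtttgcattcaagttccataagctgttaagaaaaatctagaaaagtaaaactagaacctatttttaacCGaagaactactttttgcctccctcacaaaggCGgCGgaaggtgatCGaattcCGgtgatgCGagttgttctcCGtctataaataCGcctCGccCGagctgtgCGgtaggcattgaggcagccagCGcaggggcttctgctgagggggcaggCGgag
The first has 37 CG dinucleotides and 73.7% G or C, more CG than 90.1% of the 35116 promoters of the table. The second has 14 CG and 46% G or C, against medians of 14 CG and 58.7% over all promoters. The first holds 5 matches of GGGCGG on either strand, a motif found in 45% of promoters, and no TATAAA. The second holds TATAAA on its plus strand at position -30 from the annotated start, a motif found in 11.5% of promoters, and the GC box motif of the first is absent from it. A core of the CTCF motif, AGGGGGC, held by 14.4% of promoters, matched 1 time in the second at position 36 and not in the first, and its relaxed form AGNNGGC (64.2% of promoters) matched 2 times in the second, 1 of them the same place, and 1 time in the first. CACGTG, held by 7.26% of promoters, matched in neither.

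Polymerase stood at both genes among the highest densities of the genome in HCT116, and normalized densities of all 3 polymerase forms were lower in DKO. The region of highest density at each gene is called its leading region. By HCT116 density, the leading region of NEAT1 ranked 10 of 149589 regions for Pol2Ser5, 21 of 236942 for Pol2Ser2 and 6 of 162247 for TotalRNAPol2, and by DKO density it ranked 22, 794 and 12. The leading region of MALAT1 ranked 254, 4 and 8 in HCT116 in the same order of targets, and 1569, 404 and 1252 in DKO. The lowest of these DKO percentiles, each within its own table, was 98.95, that of Pol2Ser5 at MALAT1.

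At NEAT1, Pol2Ser5 was counted at the start of the gene, where initiating polymerase is usually found. The leading region, chr11:65181726-65197072 with its summit 0.294 kb past the start bound, had 1599 reads in DKO and 1387 reads in HCT116. After the authors' scaling its density was 581 in DKO and 956 in HCT116, an M of -0.72 [-0.82 to -0.62]. This difference is short of 2-fold. TotalRNAPol2 had its summit at nearly the same place, 0.342 kb past the start bound (chr11:65178290-65198309), with 1656 reads in DKO and 1290 reads in HCT116. Its density was 468 in DKO and 1143 in HCT116, an M of -1.29 [-1.40 to -1.18]. In this table the scaling between the lines changed with density, and with one constant factor in place of the authors' line M was -0.24, so the call past 2-fold rests on the scaling.

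Pol2Ser2 at NEAT1 was counted further into the gene. Its leading region, chr11:65188523-65199704, had its summit 4.573 kb past the start bound, in the first of 3 equal parts of the gene. It had 331 reads in DKO and 947 reads in HCT116, and densities of 128 in DKO and 615 in HCT116. M was -2.26 [-2.45 to -2.08], and -1.15 with a constant factor, past 2-fold under both. Among the 2371 Pol2Ser2 regions in the highest 1% of A, the mean log2 density of the 2 lines, 36 regions, itself included, had an M as low, or 59 by the constant factor.

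At MALAT1 the M of total polymerase was further below 0 than at NEAT1. The leading TotalRNAPol2 region, chr11:65263248-65277491, had its summit 2.121 kb past the start bound, 785 reads in DKO and 1253 reads in HCT116. Its density was 236 in DKO and 1045 in HCT116, an M of -2.15 [-2.28 to -2.02], and -1.27 with a constant factor. Of the 1623 TotalRNAPol2 regions in the highest 1% of A, 6 had an M as low, itself included, or 12 by the constant factor. Counting intervals of the 2 genes did not overlap, and M at MALAT1 minus M at NEAT1 was -0.86 under the authors' scaling and -1.03 under the constant factor. The same difference was -0.29 for Pol2Ser2 and -0.17 for Pol2Ser5, and -0.15 and -0.21 under the constant factor.

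Pol2Ser2 at MALAT1 peaked at the other end of the gene, where the RNA is cut. Its leading region, chr11:65266395-65276429, spans most of the gene and runs past it, and its summit lay 9.365 kb from the start bound of a gene 8.8 kb long. It had 428 reads in DKO and 1354 reads in HCT116, and densities of 157 in DKO and 924 in HCT116. M was -2.56 [-2.72 to -2.40], the lowest of the 329 regions of the locus, and -1.29 with a constant factor. Of the 2371 regions in the highest 1% of A, 19 had an M as low, or 46 by the constant factor. With summits inside the gene there were only 2 Pol2Ser2 regions, near its start, with densities of 37.5 and 28.3 in HCT116. They had 35 and 26 reads in DKO and 84 and 66 reads in HCT116, with M of -0.88 and -0.82. Both were called in HCT116 only, so the calling favoured their direction. Pol2Ser5 at MALAT1, chr11:65263234-65276643 with its summit 1.353 kb past the start bound, had 744 reads in DKO and 745 reads in HCT116. Its density was 274 in DKO and 508 in HCT116, an M of -0.89 [-1.04 to -0.74], which is short of 2-fold.

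**Figure D1:**
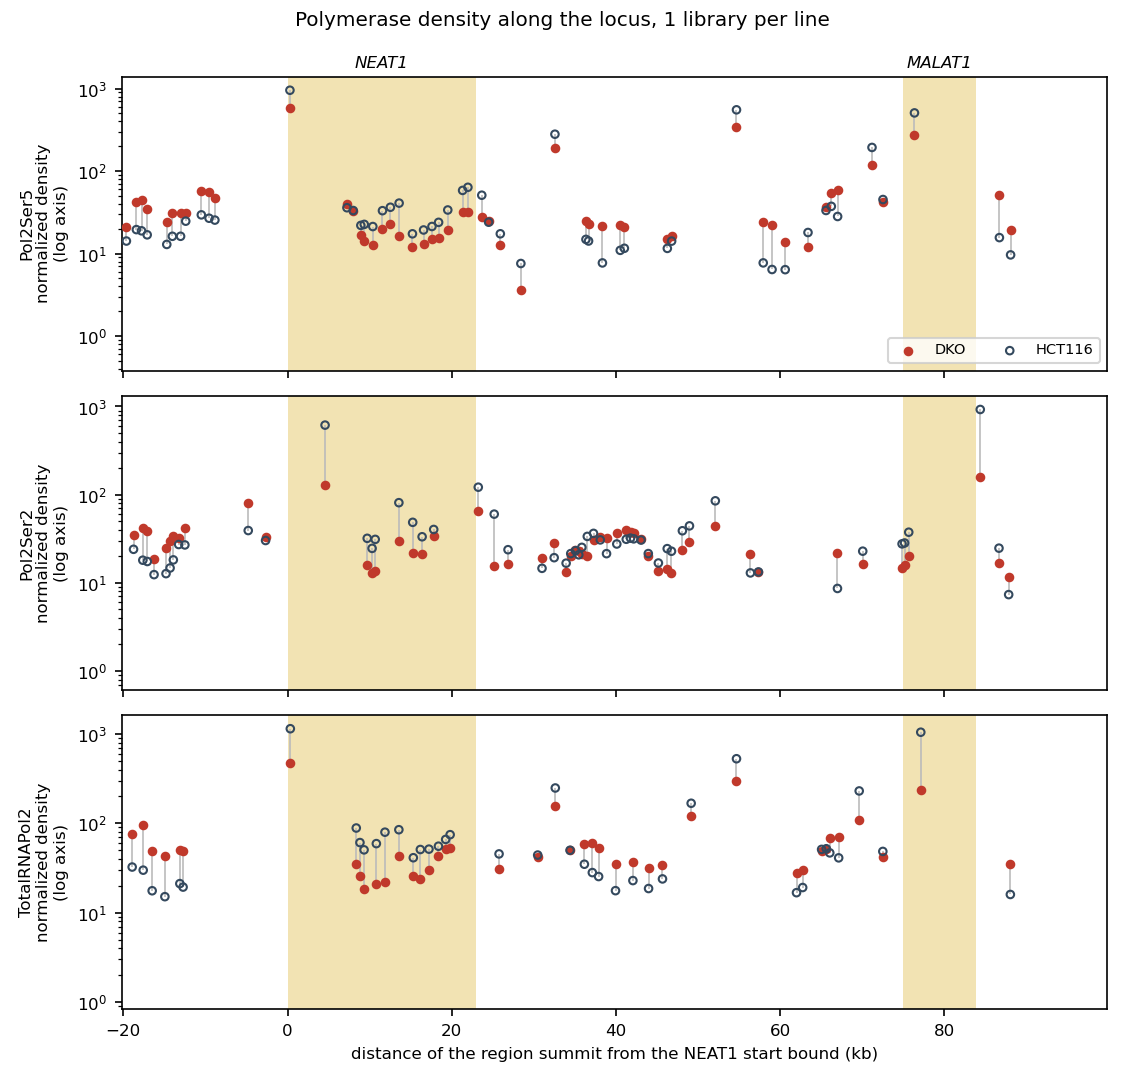
Normalized density (log axis) of every polymerase region against the distance of its summit from the NEAT1 start bound in kb, with DKO as filled points, HCT116 as open points, a line joining both values of a region, and shading for the bounds of NEAT1 and MALAT1. The leading regions of both genes stand above all other regions of the window in HCT116 in the Pol2Ser2 and TotalRNAPol2 panels, and their DKO points lie below, as for TotalRNAPol2 at MALAT1 with 236 in DKO and 1045 in HCT116.

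At such densities M was below 0 in these tables generally, so the values were set beside regions of like density in bins of A 0.5 wide with at least 20 regions. In the TotalRNAPol2 bin centred on 8.75, which holds the MALAT1 region, 205 regions had a median M of -0.62 and a 5th percentile of -1.55, above the -2.15 at MALAT1. The Pol2Ser2 bin centred on 8.75 held 24 regions with a median of -1.05 and a 5th percentile of -2.08, and MALAT1 with -2.56 was lower. NEAT1 in Pol2Ser2, with -2.26, was at about the 5th percentile (-2.23) of the 74 regions in the bin centred on 8.25, whose median was -0.83. In TotalRNAPol2 the NEAT1 region was denser than any bin with 20 regions. The nearest bin, centred on 9.25, had 44 regions with a median M of -0.98 and a 5th percentile of -1.68, so the NEAT1 value of -1.29 was within that range. For Pol2Ser5 the MALAT1 value of -0.89 was near the 5th percentile of -0.86 in its bin of 483 regions (median -0.28), and the NEAT1 value of -0.72 was within the range of the nearest bin, of 111 regions with a median of -0.42 and a 5th percentile of -0.94.

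**Figure D2:**
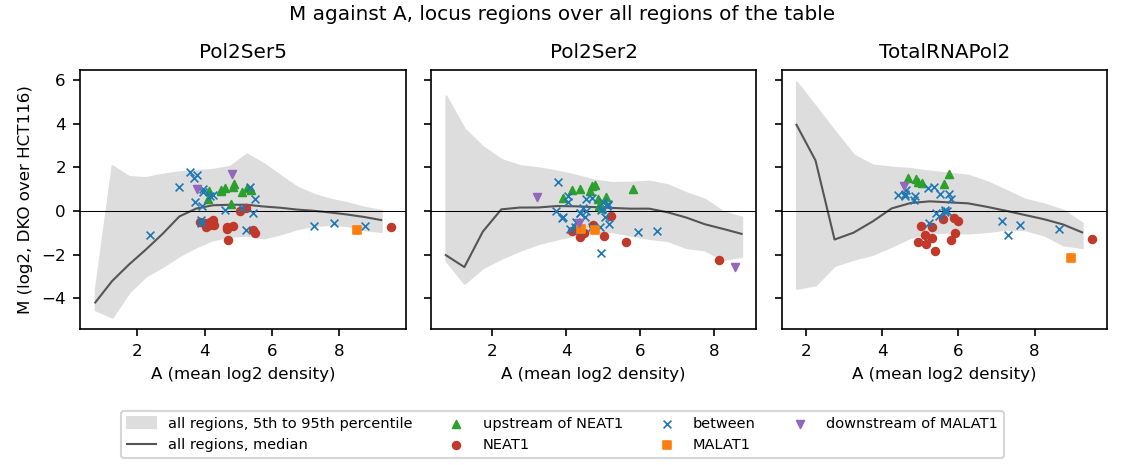
M (log2, DKO over HCT116) against A (mean log2 density) for the polymerase regions of the locus, coloured by position, over the median (line) and the 5th to 95th percentile (grey band) of all regions of each table in bins of A. The TotalRNAPol2 point of MALAT1 (-2.15) and the Pol2Ser2 point whose summit lies just past the MALAT1 end (-2.56) are below the band, and the leading TotalRNAPol2 and Pol2Ser5 points of NEAT1 lie to the right of the last bin.

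**Figure D3:**
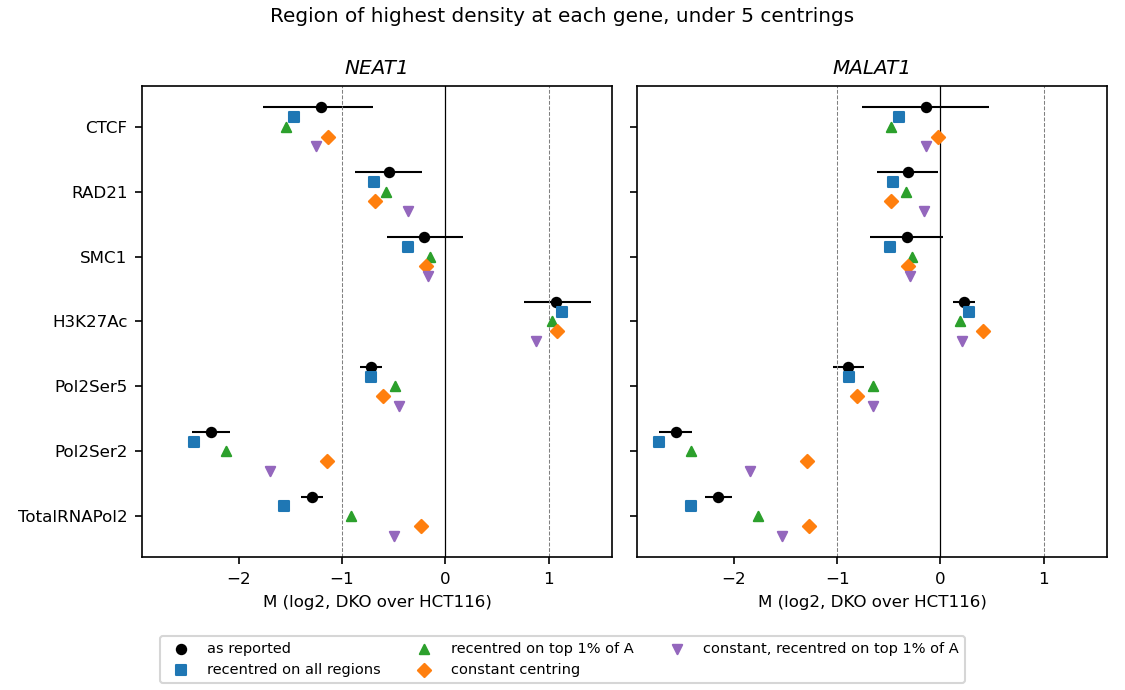
M (log2, DKO over HCT116) of the leading region of each gene for the 7 targets under 5 ways of centring, with the exact 95% interval on the value as reported and dashed lines at 2-fold. All polymerase values are below 0 under every centring shown, and TotalRNAPol2 at NEAT1 has M of -1.29 as reported and -0.24 with constant centring.

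Along the body of NEAT1, lower polymerase was not limited to the leading region. Of 13 TotalRNAPol2 regions with their summits in the gene, all had M below 0 and 7 were past 2-fold lower, with a median M of -1.10. Over the whole table, 10.2% of regions were past 2-fold lower, 38.6% had M below 0 and the median M was 0.27. Of 8 Pol2Ser2 regions in the gene, all had M below 0 and 5 were past 2-fold lower, with a median of -1.08. Over its whole table, 10.9% were past 2-fold lower, 42.5% had M below 0 and the median was 0.17. Of 16 Pol2Ser5 regions in the gene, 15 had M below 0 and 2 were past 2-fold lower, with a median of -0.67. In that table, 21% of all regions were past 2-fold lower, so the count at NEAT1 is not above that share, while M was below 0 at 50.2% of all regions. With constant centring the counts past 2-fold lower in NEAT1 were 9 for TotalRNAPol2, 6 for Pol2Ser2 and 2 for Pol2Ser5, where 19%, 18.3% and 22.6% of the whole tables were. A region that the authors called in 1 line is listed through the line where it is high, and 5 of the 13 TotalRNAPol2 regions, 2 of the 8 Pol2Ser2 regions and 4 of the 16 Pol2Ser5 regions in the gene were called in HCT116 only. Of regions in the gene called in both lines, 3 of 8 were past 2-fold lower for TotalRNAPol2 (5.86% over its table) and 4 of 6 for Pol2Ser2 (5.83% over its table), and M was below 0 at all 8 and all 6. For Pol2Ser5, 2 of 10 such regions were past 2-fold lower (6.17% over its table) and 9 had M below 0 (50% over its table). In the window, 32 of 42 TotalRNAPol2, 48 of 55 Pol2Ser2 and 46 of 52 Pol2Ser5 regions shared reads with a neighbour. The counts in the gene are therefore not of separate measurements.

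With the gene cut into 3 equal parts, the median M of TotalRNAPol2 was -1.29 in the first (1 region), -1.38 in the middle (6 regions) and -0.58 in the last (6 regions). For Pol2Ser2 it was -2.26 in the first (1 region), -1.14 in the middle (5 regions) and -0.45 in the last (2 regions). For Pol2Ser5 it was -0.29 in the first (2 regions), -0.67 in the middle (8 regions) and -0.72 in the last (6 regions). With constant centring the medians of TotalRNAPol2 were -0.24, -1.68 and -0.79 in the same order of parts, so which part was nearest 0 rests on the scaling. Those of Pol2Ser2 were -1.15, -1.15 and -0.39, nearest 0 in the last part under both scalings.

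Single regions of the body show the size of the reads behind these medians. The TotalRNAPol2 region chr11:65201355-65202534 had 49 reads in DKO and 140 reads in HCT116, an M of -1.85 [-2.37 to -1.39], and the Pol2Ser2 region chr11:65201292-65204531 over and beside it had 57 reads in DKO and 166 reads in HCT116, an M of -1.44 [-1.92 to -1.01]. The lowest Pol2Ser5 region, chr11:65203290-65204545, had 41 reads in DKO and 62 reads in HCT116, an M of -1.34 [-1.96 to -0.76]. Across the end bound, where RNase P cuts the long isoform, Pol2Ser2 had 137 reads in DKO and 226 reads in HCT116 (chr11:65209189-65214853, M -0.91 [-1.24 to -0.61]). Just beyond it, chr11:65214938-65216624 had 27 reads in DKO and 133 reads in HCT116, an M of -1.95 [-2.64 to -1.38]. All of these regions had intervals below 0, and the stretch past the end had the lowest Pol2Ser2 value of the NEAT1 side after the leading region.

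Upstream of NEAT1, from the window's edge to the start bound, the polymerase regions with their summits in that stretch had M above 0. The leading Pol2Ser5 and TotalRNAPol2 regions of NEAT1, with M of -0.72 and -1.29, also reach into it, but were counted at summits inside the gene. No TotalRNAPol2 region had its summit between chr11:65178290, where the leading region starts, and the start bound. Regions called in DKO only are listed through the line where they are high. So were called all 6 TotalRNAPol2 regions with summits upstream, 8 of 11 Pol2Ser5 regions and 5 of 11 Pol2Ser2 regions. The 6 TotalRNAPol2 regions were past 2-fold higher, with a median M of 1.41 and a range of 1.22 to 1.69, where 20.7% of the whole table was, but their direction was set by the calling. With constant centring 4 of these 6 were past 2-fold, against 12.1% of the table. The strongest, chr11:65171474-65173401, had 226 reads in DKO and 50 reads in HCT116. Of 11 Pol2Ser5 regions, 4 were past 2-fold higher (14.9% over the table) and all 11 had M above 0 (49.8% over the table), with a median of 0.95. Of 11 Pol2Ser2 regions, 4 were past 2-fold higher (18.6% over the table) and all had M above 0 (57.5% over the table), with a median of 0.90. These backgrounds are not limited to regions called in DKO only. Of the regions upstream called in both lines, 2 of 3 were past 2-fold higher for Pol2Ser5 (7% over its table) and 1 of 4 for Pol2Ser2 (5.53% over its table). M at the 3 Pol2Ser5 regions was 1.25, 0.98 and 1.05, and at the 4 Pol2Ser2 regions it was 0.60, 0.23, 0.65 and 1.02. TotalRNAPol2 densities upstream were low beside those of the leading regions of the genes, up to 96.7 in DKO and 32.5 in HCT116. They were not low beside the rest of NEAT1 in DKO, where the region across the end bound had 53.5. Pol2Ser2 at chr11:65178166-65187263 had a density of 79.7 in DKO and 39.2 in HCT116. Across the NEAT1 end bound Pol2Ser2 had 64.5 in DKO and 121 in HCT116. Which of the neighbours before NEAT1 in the RefSeq order these regions lie in was not placed here.

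Between the genes, 3 strong polymerase sites had M below 0, the one closest to MALAT1 given for TotalRNAPol2 only. At 54.7 kb past the NEAT1 start bound, Pol2Ser5 (chr11:65237900-65247332) had 940 reads in DKO and 810 reads in HCT116, densities of 345 in DKO and 554 in HCT116, and an M of -0.68 [-0.82 to -0.55]. TotalRNAPol2 at that place (chr11:65241149-65248609) had 962 reads in DKO and 655 reads in HCT116, an M of -0.82 [-0.96 to -0.67], and -0.04 with constant centring. At 32.6 kb, M was -0.57 [-0.76 to -0.38] for Pol2Ser5 and -0.67 [-0.87 to -0.46] for TotalRNAPol2. Closer to MALAT1, chr11:65258449-65262420 had 301 TotalRNAPol2 reads in DKO and 330 in HCT116, an M of -1.09 [-1.32 to -0.86], and -0.73 with constant centring. Near it M was above 0 in the other forms. Pol2Ser5 at chr11:65256668-65258384, called in both lines, had 155 reads in DKO and 42 in HCT116, an M of 1.08 [0.61 to 1.63]. Pol2Ser2 at chr11:65257077-65257276, called in DKO only, had 33 reads in DKO and 21 in HCT116, an M of 1.33 [0.52 to 2.21]. Over all regions between the genes, the strong sites included, M went both ways. The median M was 0.50 for TotalRNAPol2 (21 regions), 0.30 for Pol2Ser5 (22 regions) and -0.09 for Pol2Ser2 (31 regions). In the same order of targets, 12, 14 and 6 of these were called in DKO only and 1, 2 and 12 in HCT116 only. The calling favoured the direction of regions called in 1 line. Over the regions between the genes called in both lines, the strong sites included, the median M was -0.51 for TotalRNAPol2 (8 regions), -0.63 for Pol2Ser5 (6 regions) and -0.26 for Pol2Ser2 (13 regions).

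Past the end of MALAT1 the 2 Pol2Ser5 regions and the 1 TotalRNAPol2 region were all called in DKO only, so the calling favoured their direction. Pol2Ser5 at chr11:65276727-65277293 had 131 reads in DKO and 23 reads in HCT116, an M of 1.70 [1.11 to 2.46]. TotalRNAPol2 at chr11:65277911-65278379 had 72 reads in DKO and 30 reads in HCT116, an M of 1.14 [0.54 to 1.84], and 0.64 with constant centring. The 2 weak Pol2Ser2 regions there had M of -0.57 and 0.65.

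**Figure D4:**
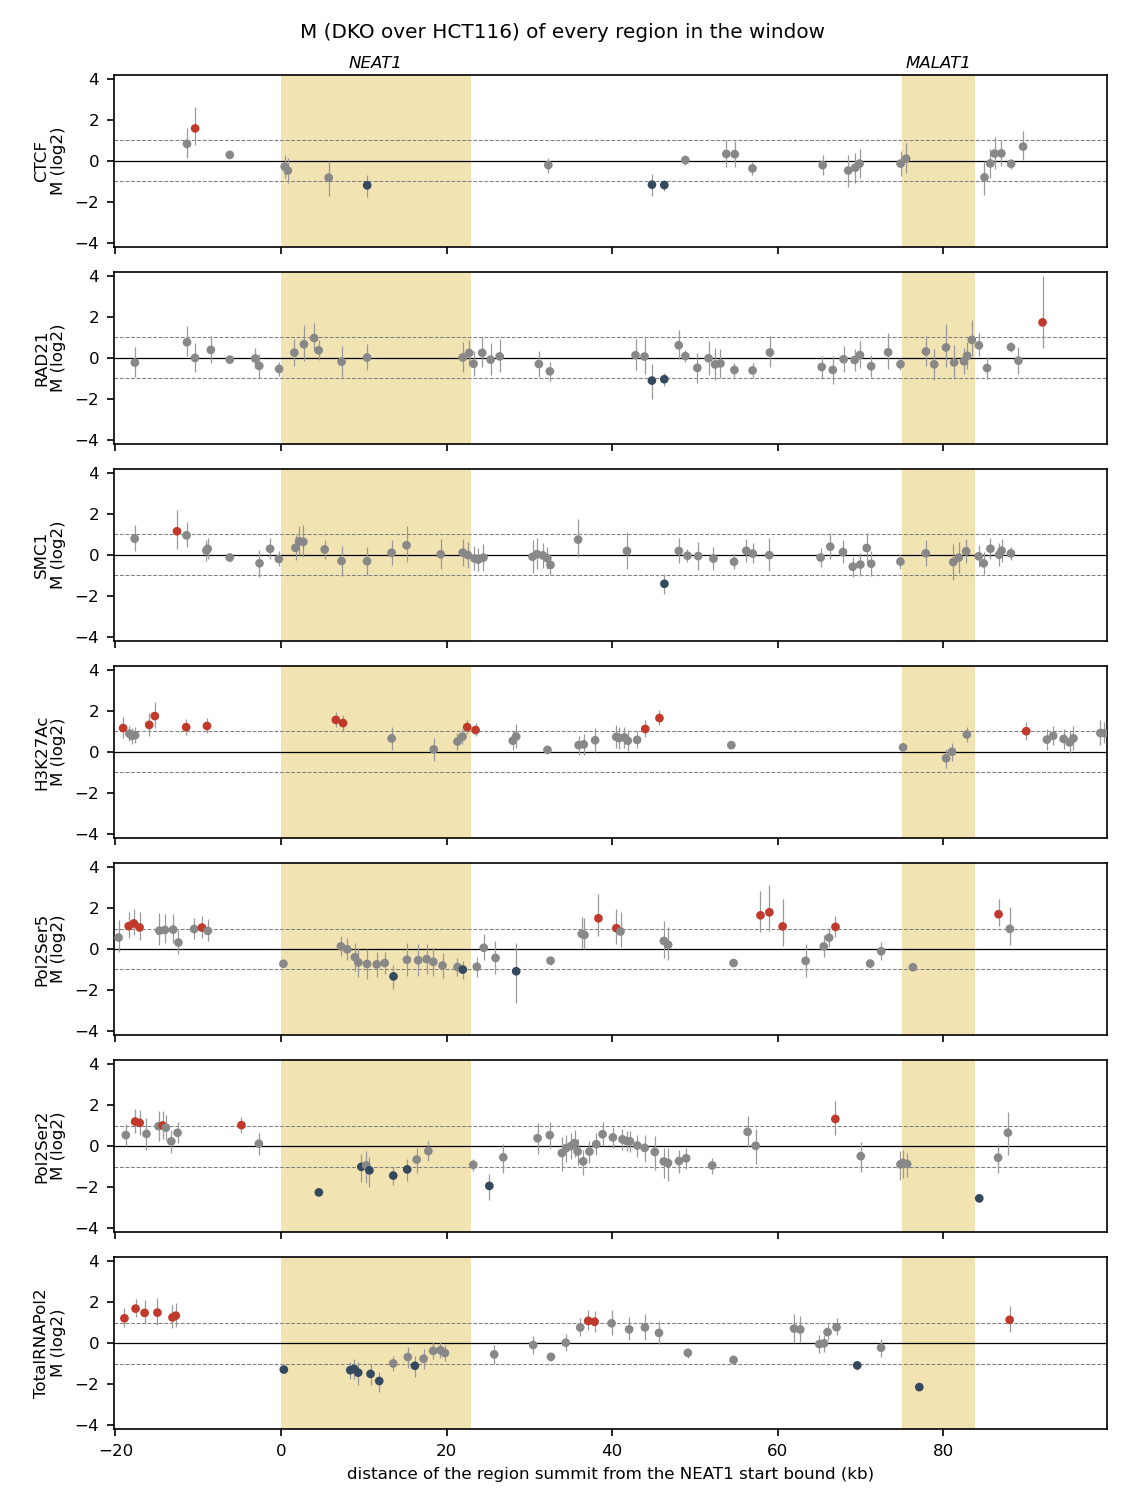
M (log2, DKO over HCT116) of all 329 regions of the window against the distance of their summits from the NEAT1 start bound in kb, 1 panel per target, with exact 95% counting intervals, dashed lines at 2-fold, red points past 2-fold higher and dark blue points past 2-fold lower in DKO. The polymerase panels are above 0 upstream of NEAT1 and below 0 over NEAT1 and at MALAT1, except 1 Pol2Ser5 region of NEAT1 at 0.13, and the H3K27Ac panel is above 0 at 41 of 42 regions.

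Over NEAT1 H3K27Ac had M above 0 where polymerase mostly had M below 0, and at regions with summits upstream of NEAT1 both had M above 0. Of 42 regions in the window, 41 had M above 0 and 12 were past 2-fold higher in DKO, with none past 2-fold lower, and the median M was 0.74. Over the whole table, 11% of regions were past 2-fold higher, 10.4% were past 2-fold lower, 46.7% had M above 0 and the median M was -0.05. Of the 42 regions, 34 shared reads with a neighbour, so these counts are not of separate measurements. The authors called 20 of the 42 in DKO only, and of the 18 called in both lines 6 were past 2-fold higher (5.88% over the table) and 0 lower. The 12 regions were spread as 5 upstream of NEAT1, 3 in NEAT1, 3 between the genes, 0 in MALAT1 and 1 past it.

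Within NEAT1 the densest acetylated region by summit, chr11:65196474-65196986 at 6.626 kb, had 238 reads in DKO and 91 reads in HCT116, an M of 1.57 [1.22 to 1.94]. Beside it chr11:65197131-65198206 had 188 reads in DKO and 81 reads in HCT116, an M of 1.41 [1.04 to 1.82]. At the end bound the leading region chr11:65212946-65217733 had 231 reads in DKO and 124 reads in HCT116, an M of 1.07 [0.76 to 1.40], with its summit just past the gene. All 7 regions with summits in NEAT1 had M above 0, with a median of 0.75, as did the 8 upstream, with a median of 1.19. The acetylated region that covers the NEAT1 start, chr11:65179746-65196342, was counted at a summit at -8.946 kb from the start bound (192 reads in DKO and 91 reads in HCT116, M 1.27 [0.91 to 1.65]), so the tables hold no acetylation value at the NEAT1 start itself.

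At MALAT1 acetylation was high in both lines and close to equal. The region over its start, chr11:65251215-65270000 with its summit 0.157 kb past the start bound, had 1575 reads in DKO and 1344 reads in HCT116. Its density was 786 in DKO and 674 in HCT116, an M of 0.22 [0.12 to 0.33], and it ranked 140 by DKO density and 277 by HCT116 density among 195421 regions. The adjoining region between the genes, chr11:65236323-65251113, was denser still, with 2073 reads in DKO and 1619 reads in HCT116 and an M of 0.33 [0.24 to 0.43]. Inside MALAT1, the 4 regions by summit had M between -0.31 and 0.86. The leading regions of MALAT1 thus had M of 0.22 for H3K27Ac, -0.89 for Pol2Ser5 and -2.15 for TotalRNAPol2, each scaled within its own table. With a constant factor these were 0.41, -0.81 and -1.27. Their summits lay 0.157 kb, 1.353 kb and 2.121 kb past the start bound, so they were not counted at the same place.

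CTCF bound 4 sites overlapping NEAT1 and 2 overlapping MALAT1, at percentiles of the table from 6.17 to 50.2 by DKO density and from 41.1 to 79.5 by HCT116 density. Over the window 3 of 26 CTCF regions were past 2-fold lower in DKO and 1 was past 2-fold higher, where the whole table had 6.33% lower and 20.1% higher. Inside NEAT1 all 4 regions had M below 0, as did 37% of the whole table. Of these 4, 2 were called in HCT116 only, so the calling favoured their direction. The 2 called in both lines had M of -0.29 and -1.20, and 49.3% of such regions over the table had M below 0. The leading one, chr11:65200389-65200897 at 10.409 kb, had 45 reads in DKO and 98 reads in HCT116, densities of 44.5 in DKO and 102 in HCT116, and an M of -1.20 [-1.76 to -0.70]. Cohesin at that site was not lower by as much: RAD21 had 52 reads in DKO and 39 reads in HCT116 (M 0.01), and SMC1 had 40 reads in each line (M -0.31). The 1 CTCF region past 2-fold higher lay upstream of NEAT1, at chr11:65179701-65180004, with 51 reads in DKO and 14 reads in HCT116, an M of 1.58 [0.78 to 2.62]. It was called in DKO only, so the calling favoured its direction. Of the 13 CTCF regions of the window called in both lines, 0 were past 2-fold higher and 3 lower (6.44% and 4.31% over the table). At the start of NEAT1, CTCF (chr11:65189458-65190872) had 54 reads in DKO and 61 reads in HCT116, an M of -0.29 [-0.85 to 0.26], which includes no difference.

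At MALAT1, CTCF and cohesin met just before the start bound, with the RAD21 and SMC1 summits 12 bp and 17 bp from that of CTCF. CTCF (chr11:65264767-65265412) had 47 reads in each line, an M of -0.14 [-0.76 to 0.47]. RAD21 (chr11:65264152-65266668) had 180 reads in DKO and 205 reads in HCT116, an M of -0.31 [-0.61 to -0.02], and SMC1 (chr11:65264466-65266694) had 136 reads in DKO and 135 reads in HCT116, an M of -0.33 [-0.68 to 0.03]. At the NEAT1 start the RAD21 and SMC1 summits lay further from that of CTCF, at -679 bp and -715 bp. RAD21 there had an M of -0.55 [-0.88 to -0.23] (141 reads in DKO, 185 in HCT116). SMC1 had an M of -0.20 [-0.57 to 0.17] (133 reads in DKO, 121 in HCT116). None of these reached 2-fold.

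The largest difference of CTCF together with cohesin lay between the genes, 46.3 kb past the NEAT1 start bound. CTCF there (chr11:65235739-65237141) had 162 reads in DKO and 390 reads in HCT116, densities of 167 in DKO and 381 in HCT116, and an M of -1.19 [-1.47 to -0.93]. RAD21 (chr11:65235835-65237328) had 125 reads in DKO and 234 reads in HCT116, an M of -1.05 [-1.38 to -0.73]. SMC1 (chr11:65236302-65237154) had 55 reads in DKO and 118 reads in HCT116, an M of -1.41 [-1.92 to -0.95]. The summits of the cohesin subunits were 2 bp and 16 bp from that of CTCF. It was the 1 CTCF region of 26 at which all 3 proteins were past 2-fold lower, and over the whole tables, 8.7% of RAD21 regions and 4.67% of SMC1 regions were past 2-fold lower. A weaker CTCF region beside it, chr11:65234712-65235378, had 46 reads in DKO and 98 reads in HCT116, an M of -1.17 [-1.73 to -0.67]. RAD21 there had 21 reads in DKO and 33 reads in HCT116, an M of -1.12, or -0.92 with constant centring. That RAD21 region was called in HCT116 only, so the calling favoured its direction, and no SMC1 region overlapped the weaker CTCF region.

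The next site on the MALAT1 side did not share that difference. CTCF there, chr11:65237872-65239796, had 282 reads in DKO and 294 reads in HCT116 (M 0.03), with M of 0.08 for RAD21 and -0.04 for SMC1. Between the summits of the 2 lower CTCF regions acetylation was higher in DKO, and chr11:65234969-65236203, called in DKO only, had 224 reads in DKO and 81 reads in HCT116, an M of 1.66 [1.29 to 2.05]. The strongest CTCF site of the window, chr11:65182758-65185623 upstream of NEAT1, had 572 reads in DKO and 528 reads in HCT116 (M 0.29 [0.12 to 0.46]), with M of -0.09 for RAD21 and -0.13 for SMC1. The strong site past MALAT1, chr11:65277897-65279508, had 277 reads in DKO and 329 reads in HCT116 (M -0.15 [-0.39 to 0.08]). Cohesin at that site had M of 0.52 [0.28 to 0.77] for RAD21 (339 reads in DKO, 226 in HCT116) and 0.07 for SMC1. The strong sites on either side of the gene pair were thus within 2-fold, and the one that was lower stood between the genes.

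**Figure D5:**
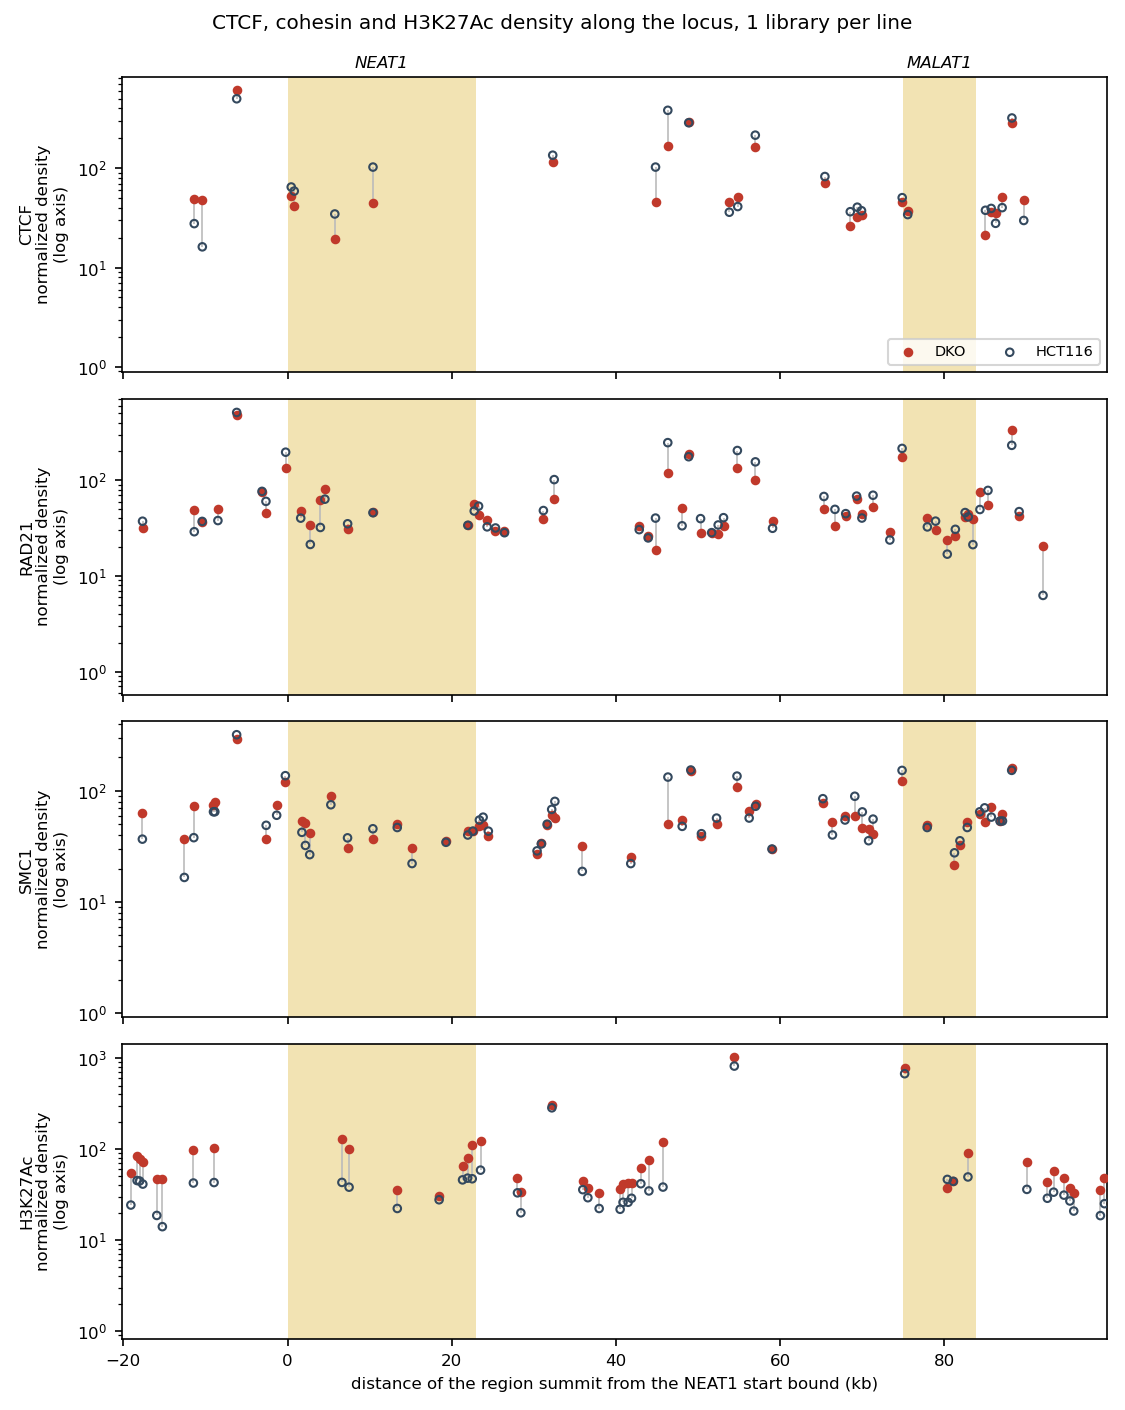
Normalized density (log axis) of CTCF, RAD21, SMC1 and H3K27Ac regions against the distance of their summits from the NEAT1 start bound in kb, with DKO as filled points, HCT116 as open points and shading for the bounds of NEAT1 and MALAT1. At 46.3 kb the DKO points of CTCF, RAD21 and SMC1 lie below the HCT116 points (CTCF 167 in DKO and 381 in HCT116). CTCF at -6.19 kb (608 in DKO and 498 in HCT116) and at 88.2 kb (287 in DKO and 319 in HCT116) is within 2-fold.

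Cohesin was within 2-fold between the lines at most other places. Of 26 CTCF regions, 22 overlapped regions of both subunits. Of the RAD21 regions that overlapped SMC1, 18 also overlapped CTCF and 22 did not. RAD21 had 1 region past 2-fold higher and 2 past 2-fold lower of 55, and SMC1 1 and 1 of 57. Over all RAD21 regions, 13.7% were past 2-fold higher and 8.7% lower, and over all SMC1 regions, 9.36% were higher and 4.67% lower. With constant centring RAD21 had 3 regions higher and 1 lower, against 18.3% and 6.37% of its table. The median M over the window was -0.03 for RAD21 and 0.01 for SMC1.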

How the data were processed

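Chromatin immunoprecipitation was followed by single-end sequencing in DKO and HCT116 cells, with 14 immunoprecipitated libraries and 2 input libraries among 16 samples; the inputs were not used here. Samples were grouped by title. Reads were aligned with BWA to hg19 and MACS2 was named for targets other than TotalRNAPol2, per the submitters' processing notes, with no versions or thresholds. The deposited normalized read density is a signal that the authors scaled between the lines within each table, per the file headers. The deposited log2 columns M and A are the ratio and mean of these densities by the authors, per the file headers, and M, DKO over HCT116, matched the density columns within 2.61e-05. The deposited p-value of each region, made by the authors, served only as 1 alternative filter.

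Reads per region were recovered from M and A with 1 added to each count, and 100% of values were whole within 0.05 in all 7 tables. The authors' scaling was a line in A, whose slope was 0.33 for Pol2Ser2 and 0.32 for TotalRNAPol2, and from -0.13 to 0.06 elsewhere. Counting windows were taken as centred on the summit, since 11 neighbouring pairs with close summits and distant midpoints had a median absolute log2 read ratio of 0.08, against 0.33 in 246866 pairs distant in both. Regions were therefore placed by summit, where midpoints had been planned.

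The regions named are the leading region of each gene, those at its start and end bounds, and regions past 2-fold with a density at or above their table's median. Others named were chosen after their values were seen. The members and lists were chosen with earlier results of these data known. The recovery and intervals were tested on simulated data. Levels were compared within a table only. A planned list of paraspeckle, speckle and RNA processing genes was not placed, as no hg19 annotation was used here. Alternatives were other centrings of M, subsets of regions and a 1.5-fold threshold. Python 3.11.15, NumPy 2.4.6, pandas 2.3.3, SciPy 1.17.1 and Matplotlib 3.10.9 were used.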

Additional observations from a re-analysis of the deposited data

How the results depend on the processing

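No paired analysis was possible because each line had 1 library per target. No leading region changed its sign under any other centring of M. Of the 14 leading regions, 6 were past 2-fold as reported, and 5 were with constant centring or with M recentred on the regions in the highest 1% of A. With constant centring recentred on the highest 1% of A, a setting chosen after seeing the data, 4 were, the further one lost being H3K27Ac at NEAT1 with M of 0.87.

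TotalRNAPol2 at NEAT1 had M of -1.56 recentred on all regions, -1.63 on chromosome 11, -0.24 with constant centring, -0.91 on the highest 1% of A and -0.50 with both of the last, so its call was lost under the last 3. At MALAT1 the same settings gave -2.42, -2.49, -1.27, -1.77 and -1.53. Pol2Ser2 at NEAT1 had -2.46 on chromosome 11, -1.15 with constant centring and -1.70 with that recentred on the highest 1% of A. At MALAT1 it had -2.73 on all regions, -2.76 on chromosome 11, and -1.29 and -1.84 in the other settings. Pol2Ser5 at NEAT1 had -0.60 with constant centring, -0.49 on the highest 1% of A and -0.45 with both, and at MALAT1 -0.66 and -0.65 on the highest 1% of A. H3K27Ac at MALAT1 had 0.41 with constant centring. With the leading region taken only among summits inside the gene, also chosen after seeing the data, M was 0.37 for RAD21, 0.27 for SMC1 and 1.57 for H3K27Ac at NEAT1, and 0.18 for SMC1 and -0.88 for Pol2Ser2 at MALAT1.

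Counts of regions of the window past the threshold at 1.5-fold were 8 for CTCF, 13 for RAD21, 7 for SMC1, 29 for H3K27Ac, 35 for Pol2Ser5, 30 for Pol2Ser2 and 30 for TotalRNAPol2. Of regions called in both lines, past 2-fold were 1 of RAD21, 1 of SMC1, 6 of H3K27Ac, 5 of Pol2Ser5, 7 of Pol2Ser2 and 5 of TotalRNAPol2. Those of RAD21, SMC1 and TotalRNAPol2 were all lower and those of H3K27Ac all higher, while Pol2Ser5 had 3 higher and 2 lower, and Pol2Ser2 had 1 higher and 6 lower. All 9 higher calls of TotalRNAPol2 thus lay in regions called in 1 line. Counts of such regions by position were also added after seeing the data. Where the authors' deposited p-value was under 1e-05 they were 1 of RAD21, 1 of SMC1, 1 of Pol2Ser5, 4 of Pol2Ser2 and 8 of TotalRNAPol2. At or above the table's median density they were 1 of RAD21 and 1 of SMC1. SMC1 also had 1 when recentred on all regions or on chromosome 11. Constant centring recentred on the highest 1% of A gave 7 for RAD21, 7 for H3K27Ac and 23 for Pol2Ser2.

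The split of higher against lower calls moved with the centring. TotalRNAPol2 had 9 higher and 9 lower as reported, 4 and 12 recentred on all regions, 4 and 14 on chromosome 11, 4 and 10 with constant centring, 16 and 4 on the highest 1% of A, and 1 and 11 with constant centring recentred on it. Pol2Ser2 had 5 and 7 as reported, 2 and 12, 1 and 14, 3 and 10, 7 and 5, and 0 and 23 in that order. Pol2Ser5 had 11 and 3 as reported, 18 and 1 on the highest 1% of A and 7 and 3 on chromosome 11. RAD21 had 1 and 2 as reported, 3 and 1 with constant centring and 7 and 0 with that recentred on the highest 1% of A. H3K27Ac had 0 lower under every centring. Depth limits the weak regions: with 47 reads in each line, CTCF at MALAT1 has an interval of M of -0.76 to 0.47.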
